A study of Homo sapiens with 6 samples.

Results

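Long noncoding RNA genes were examined in A431 cells, an established human squamous cell carcinoma line, after knockdown of ARID1A, a subunit of the BAF (SWI/SNF) chromatin remodeling complex. The genes were chosen by symbol, not by position. Taken were genes named LINC and a number, and antisense-named genes whose symbol ends in -AS and a digit. Added to these were snoRNA host genes named SNHG and a number, and the named genes MALAT1, NEAT1, GAS5, TUG1 and H19. Of 1161 matching symbols, 230 had a mean of at least 1 FPKM (fragments per kilobase of gene, scaled to the depth of the library) over the 6 samples and were kept as members. They comprised 127 antisense-named genes, 79 LINC genes, 20 snoRNA host genes (19 SNHG genes and GAS5) and the other 4 named genes. The mean level over all samples chose the members, so their being expressed is not a result. Just inside the minimum lay PAXIP1-AS2 (1.0049 FPKM), HOXA-AS2 (1.0197 FPKM) and LINC00944 (1.0217 FPKM), and just outside it lay LINC01534 (0.9982 FPKM), LINC00342 (0.9969 FPKM) and C1RL-AS1 (0.9685 FPKM). Of the other 931 symbols, 56 had no read in any sample.

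Long noncoding RNAs are transcribed by RNA polymerase II like messenger RNAs, but most are not known to encode a protein, and many stay in the nucleus. Some act as scaffolds of nuclear bodies, some are by-products or carriers of small nucleolar RNAs (snoRNAs) in their introns, and some are transcribed from the opposite strand of a coding gene or away from its promoter. The BAF complex moves nucleosomes at enhancers and promoters, the elements from which many of these transcripts also start.

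The study compared 3 shCONTROL samples (A431 cells with a control short hairpin RNA) with 3 shARID1A samples (A431 cells with a hairpin against ARID1A), all grown in DMEM with 10% fetal bovine serum, from which total RNA was sequenced. The labels do not give the number of hairpins used or whether the replicates came from separate cultures, so the p-values speak only for the spread of these 6 libraries, and that spread may be technical. All samples come from 1 cell line, and in bulk RNA fewer expressing cells and less RNA per cell cannot be told apart. The labels do not name the RNA selection, so whether RNA without a poly(A) tail was kept in the libraries is not known. Between 31658040 and 36453744 reads were assigned to genes per sample. ARID1A (gene ID 8289) was 22.8, 22.8 and 23.8 FPKM in the shCONTROL samples and 6.70, 7.62 and 7.31 FPKM in the shARID1A samples, a mean that was 68.8% lower. The groups did not overlap (log2 fold change -1.55, SE 0.094, limma adjusted p = 0.000187), and the exact two-sided permutation p of 0.1 is the smallest that 3 against 3 samples allow. Of 12 keratinocyte and A431 markers, 11 reached 10 FPKM and only KRT14 did not (0.51 FPKM). Of the markers of other cells that the table lists, no endothelial marker, COL1A1 and LUM of 6 fibroblast markers, and CD68 of 6 leukocyte markers reached 1 FPKM. The summed fibroblast markers were 6.56 to 8.96 FPKM in the shCONTROL samples and 10.3 to 12.5 FPKM in the shARID1A samples. LUM made up that difference (mean 4.64 and 8.77 FPKM), whereas COL1A1 was 2.78 and 2.43 FPKM, and the other 4 listed were near 0. The part of these markers in the results was not tested.

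Most of the noncoding genes were weakly expressed. Their means ran from 1.0 to 208.7 FPKM with a median of 2.30 FPKM, against a median of 10.5 FPKM over all 11599 genes tested. A mean below 5 FPKM was found for 175 of the 230, and only 5 reached 50 FPKM: SNHG5 (208.7 FPKM), LRRC75A-AS1 (118.4 FPKM), GAS5, SNHG1 and SNHG6. The classes differed in level, with a median of 15.7 FPKM for the snoRNA host genes, 2.22 FPKM for the antisense-named genes and 2.25 FPKM for the LINC genes. FPKM is divided by a fixed length for each gene, whichever of its transcripts is in use, so levels of different genes compare only roughly. The share of assigned reads that the members took together was 0.357%, 0.360% and 0.314% for shCONTROL and 0.273%, 0.265% and 0.267% for shARID1A. All 3 shARID1A samples thus lay below all 3 shCONTROL samples. The summed level of the LINC genes was 353, 348 and 356 FPKM in the shCONTROL samples and 281.5, 271.7 and 287 FPKM in the shARID1A samples, and that of the antisense-named genes was 694, 705 and 627.5 FPKM against 534, 532 and 523 FPKM. Both sums were lower in every shARID1A sample, whereas those of the snoRNA host genes overlapped (757, 760.0 and 543 FPKM against 657, 611 and 526 FPKM).

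With shARID1A, 47 of the 230 noncoding genes fell and 5 rose. A gene counted as changed at a Benjamini-Hochberg adjusted p below 0.05 in limma on log2(FPKM + 1), adjusted over all genes tested, and by that rule 16.8% of all genes changed, 5.85% higher and 10.9% lower. Among the members, 22.6% changed, 2.17% higher and 20.4% lower. Their median log2 fold change was -0.25, against -0.08 over all genes, and 178 of 230 had a fold change below 0. Groups that did not overlap were found in 102 members (44.3%, against 38.8% of all genes), 90 of them lower and 12 higher with shARID1A. Over all genes, the groups did not overlap in 2949 that were lower and 1557 that were higher. All 52 changed members were among the 102. A change of at least 2-fold on the log2(FPKM + 1) scale was called in 9 of the 230 members and in 209 of all 11599 genes tested.

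The minimum level itself can favour genes that fell: 33 members had a mean below 1 FPKM in 1 of the groups, 28 of them in the shARID1A samples. Among the 197 members with a mean of at least 1 FPKM in both groups, 35 fell and 5 rose (20.3% changed, against 16.2% of the 11253 genes of that kind, of which 10.4% fell and 5.8% rose). Low level also went with lower calls in the whole table. Among genes with means of 1 to 5 FPKM, 34 of 175 members fell and 4 rose, and 13.3% of all genes fell and 3.29% rose (16.6% in all). At 5 FPKM or more 13 of 55 members fell and 1 rose, and 9.92% of all genes fell and 6.91% rose. The direction depended on scaling in part. After quantile normalization 11 members rose and 26 fell (29.7% of calls higher, against 9.62% without it), and after cyclic loess with the replicate block 12 rose and 33 fell (26.7% higher), while 53.3% and 52.3% of the calls over all genes were then higher. The members' median stayed below 0 under each of these scalings, at -0.12 in both. With the replicate number as a block 5 members rose and 65 fell. Single libraries moved the count of changed members as well: it was 24 without shCONTROL replicate 1, 20 without shCONTROL replicate 2 and 27 without shARID1A replicate 1, and 90 without the replicate 3 of both groups. Of the 52 changed members, 20 passed in every alternative in which they were tested. Only 14 of the 52 were tested at a minimum of 5 FPKM. No changed member turned sign in any alternative in which it was tested.

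**Figure D1:**
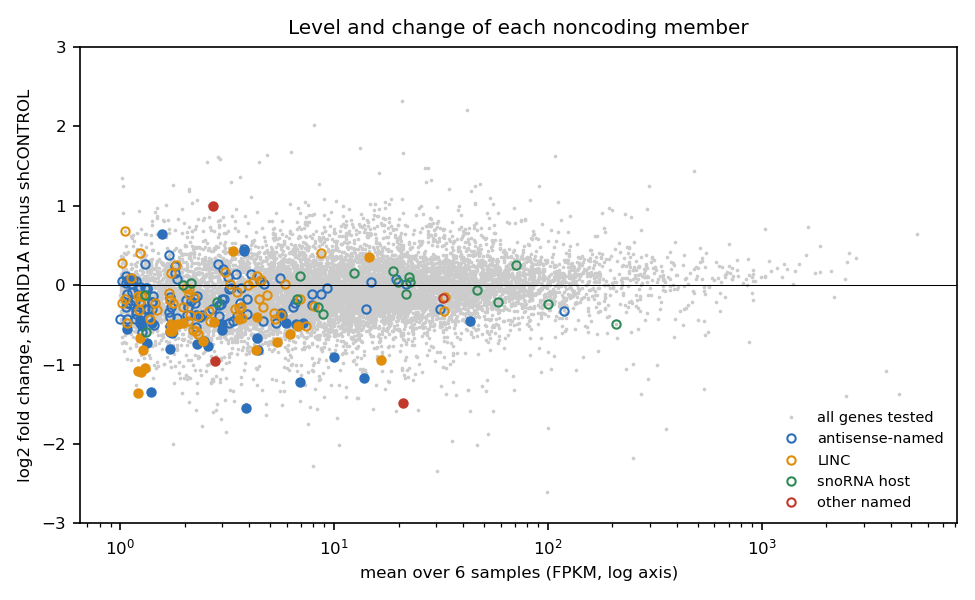
Log2 fold change (shARID1A minus shCONTROL, limma on log2(FPKM + 1)) against mean level over 6 samples on a log axis for each noncoding member, coloured by class, over all genes tested in grey; filled points passed an adjusted p of 0.05. Most of the 230 members lie below 5 FPKM and below a fold change of 0, and the filled points above 0 number 5.

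**Figure D2:**
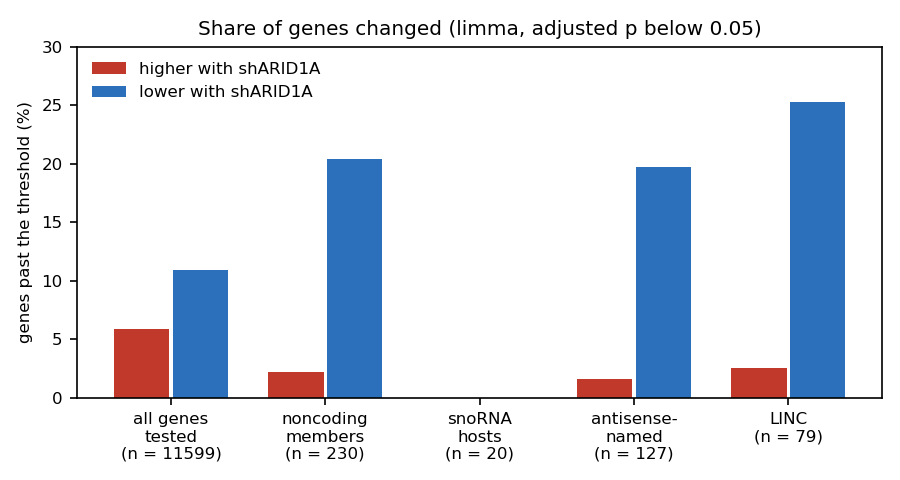
Percent of genes that rose or fell with shARID1A (limma, adjusted p below 0.05) among all genes tested, all noncoding members and 3 of their classes. The lower share is 10.9% for all genes, 20.4% for the members and 0 for the snoRNA host genes.

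Sequence near the start of the members was read from the RefSeq promoter table (GRCh38.p14, 250 bases before to 50 after the start), which matched 172 of the 230, and 33 of the 47 that fell. Of the motifs searched on both strands, the antioxidant response core TGACNNNGC stood in 10 of the 33 promoters of genes that fell (30.3%), in 29 of all 172 (16.9%) and in 13.6% of the 27305 promoters in the table. Those 10 genes were MALAT1, SEMA3B-AS1, DLGAP1-AS1, STARD7-AS1, LINC00885, LINC00704, LINC00938, LINC00346, EIF3J-AS1 and NRSN2-AS1. The AP-1 motif TGANTCA, which can lie inside that core, stood in 15.2% of the promoters of genes that fell, 9.30% of the members and 7.76% of all promoters. For the E-box CACGTG the shares were 12.1%, 8.14% and 7.43%, for CCAAT 39.4%, 36% and 35.7%, for TATAAA 9.09%, 9.88% and 12%, and for the ETS motif CCGGAAG 6.06%, 15.7% and 10.7%. The ATF4 composite TGATGNAA stood in 3.03%, 2.33% and 3.67%. None of the 33 promoters of genes that fell held the cyclic AMP response element TGACGTCA, the E2F motifs TTTGGCGC and TTTCCCGC or the ZNF143 motif, which stood in 2.91%, 1.16%, 2.91% and 1.16% of the members and in 1.98%, 0.659%, 1.66% and 1.03% of all promoters. These matches describe letters in a window and were not tested. The promoters of 3 of the genes that fell most and hold the core, and that of H19, the member that rose most, in which no motif was found, are printed 5′ to 3′ on the strand of the gene, with each motif found in capitals (the core or its reverse complement, and CCAAT as ATTGG in SEMA3B-AS1):
MALAT1 (chr11:65497488-65497787, plus strand): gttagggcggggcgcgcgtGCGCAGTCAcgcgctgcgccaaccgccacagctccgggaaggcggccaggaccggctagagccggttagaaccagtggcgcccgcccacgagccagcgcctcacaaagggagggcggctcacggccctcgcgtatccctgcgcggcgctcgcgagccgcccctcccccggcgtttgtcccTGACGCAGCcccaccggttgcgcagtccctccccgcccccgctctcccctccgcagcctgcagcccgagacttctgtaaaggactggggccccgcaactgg
SEMA3B-AS1 (chr3:50267322-50267621, minus strand): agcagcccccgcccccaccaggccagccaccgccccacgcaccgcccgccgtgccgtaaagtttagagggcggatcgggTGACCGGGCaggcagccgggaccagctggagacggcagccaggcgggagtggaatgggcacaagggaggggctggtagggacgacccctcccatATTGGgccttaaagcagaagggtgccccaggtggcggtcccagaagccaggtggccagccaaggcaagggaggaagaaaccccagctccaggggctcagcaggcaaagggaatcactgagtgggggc
DLGAP1-AS1 (chr18:3593864-3594163, plus strand): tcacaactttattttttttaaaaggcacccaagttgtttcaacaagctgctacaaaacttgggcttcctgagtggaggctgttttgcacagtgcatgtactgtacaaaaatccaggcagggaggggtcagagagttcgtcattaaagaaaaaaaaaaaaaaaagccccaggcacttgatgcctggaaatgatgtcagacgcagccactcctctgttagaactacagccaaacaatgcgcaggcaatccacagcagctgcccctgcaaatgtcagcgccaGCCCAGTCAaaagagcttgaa
H19 (chr11:2001217-2001516, minus strand): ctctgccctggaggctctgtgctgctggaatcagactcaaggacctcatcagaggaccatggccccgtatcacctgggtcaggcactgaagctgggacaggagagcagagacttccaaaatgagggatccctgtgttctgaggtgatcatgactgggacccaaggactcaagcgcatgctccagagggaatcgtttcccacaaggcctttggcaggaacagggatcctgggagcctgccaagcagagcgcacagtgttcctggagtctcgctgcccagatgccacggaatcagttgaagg

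MALAT1 and NEAT1, neighbouring genes that make abundant nuclear RNAs, both fell, and H19 rose. MALAT1 (gene ID 378938), whose RNA collects in nuclear speckles, the sites where splicing factors are stored, was 33.6, 34.7 and 25.2 FPKM in the shCONTROL samples and 10.9, 7.33 and 14.2 FPKM in the shARID1A samples. The lowest shCONTROL sample lay well above the highest shARID1A sample. The mean went from 31.2 ± 5.19 (SD, n = 3) to 10.8 ± 3.42 FPKM (SD, n = 3), a log2 fold change of -1.48 (SE 0.22, limma adjusted p = 0.00407, and 0.000753 to 0.023 over the alternatives). Its promoter holds the antioxidant response core on both strands, and 13.6% of all promoters hold that core on either strand. Whether the core bears on the fall of MALAT1 was not tested. NEAT1 (gene ID 283131), the RNA scaffold on which paraspeckles assemble, was 4.17, 4.31 and 3.38 FPKM in the shCONTROL samples and 1.49, 1.48 and 1.7 FPKM in the shARID1A samples. The knockdown values lay close together and below every control value. The mean went from 3.95 ± 0.503 to 1.56 ± 0.124 FPKM (SD, n = 3 each; log2 fold change -0.95, SE 0.12, limma adjusted p = 0.00264). Both genes passed in every alternative in which they were tested.

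H19 (gene ID 283120), an imprinted gene beside IGF2 that also carries a microRNA precursor, rose. It was 1.29, 1.24 and 1.92 FPKM in the shCONTROL samples and 3.86, 3.68 and 4.22 FPKM in the shARID1A samples. Every shARID1A value lay above every shCONTROL value, and the means were 1.48 ± 0.382 and 3.92 ± 0.279 FPKM (SD, n = 3 each; log2 fold change 1.0, SE 0.14, limma adjusted p = 0.00327, and at most 0.0219 over the alternatives). TUG1 (gene ID 55000), known for its role in the developing mouse retina, was 34.7, 32.9 and 34.8 FPKM in the shCONTROL samples and 31.5, 29.0 and 30.6 FPKM in the shARID1A samples. Its groups did not overlap, but the difference did not pass the threshold (log2 fold change -0.16, SE 0.085, limma adjusted p = 0.209).

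Of the 14 proteins of the paraspeckle, which forms on NEAT1 RNA, SFPQ alone passed the test (7.14%, against 16.8% of all genes). The median log2 fold change of the 14 was 0.10. SFPQ, an RNA-binding core protein of that body, was 157 FPKM in the shCONTROL samples and 189 FPKM in the shARID1A samples on average (log2 fold change 0.27, limma adjusted p = 0.047). With the replicate number as a block its adjusted p was 0.0538. Over the alternatives it ranged from 0.0237 to 0.203. The call was also lost with no minimum level, without the mean-variance trend and after quantile or cyclic loess scaling. It was lost as well when any sample other than shARID1A replicate 3 was left out.

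**Figure D3:**
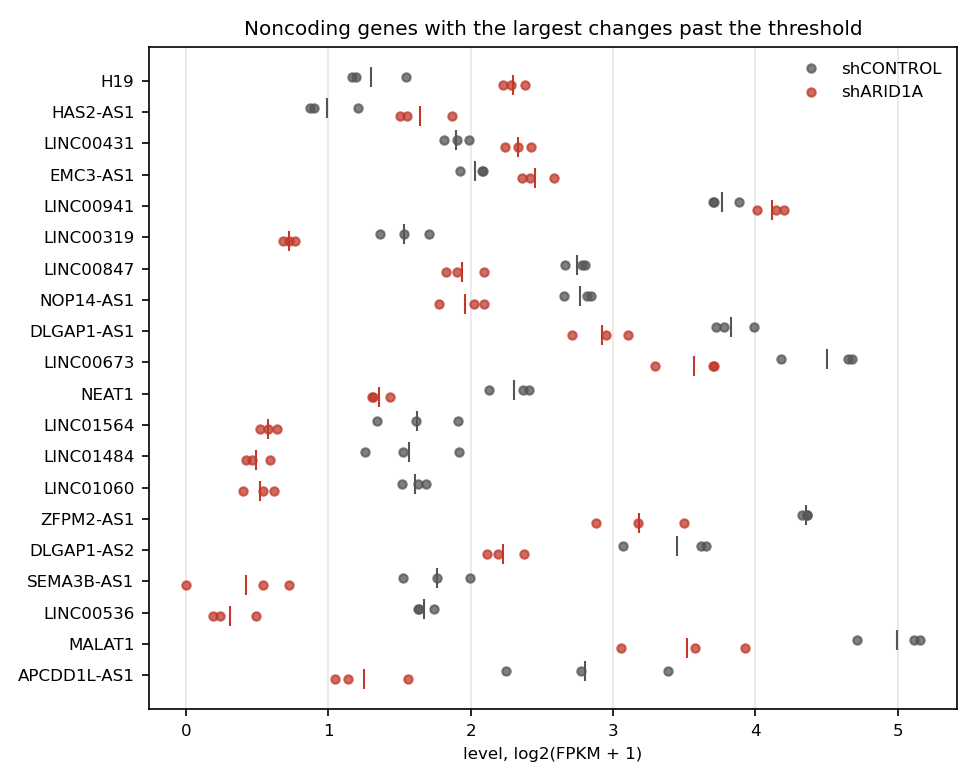
Level, as log2(FPKM + 1), in each of the 3 shCONTROL (grey) and 3 shARID1A (red) samples of the 5 noncoding genes that rose and the 15 that fell most, ordered by fold change; points are samples and vertical ticks are group means. In each gene the red and grey points do not overlap.

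LINC genes made up 22 of the 52 changed members, 20 lower and 2 higher of 79 (27.8% changed, against 16.8% of all genes). Over all genes 10.9% fell and 5.85% rose, with a median log2 fold change of -0.08, against -0.29 for the LINC genes. They were grouped by symbol, and some, LINC00319 among them, overlap a protein-coding gene in RefSeq. LINC00536 was 2.09, 2.11 and 2.35 FPKM in the shCONTROL samples and 0.408, 0.183 and 0.139 FPKM in the shARID1A samples. Its groups stood far apart, although the values rest on 13 to 219 reads per sample (log2 fold change -1.36, SE 0.13, limma adjusted p = 0.000869). LINC00673, the most strongly expressed of the LINC genes among the 15 with the largest decrease, was 24.6, 24.1 and 17.1 FPKM in the shCONTROL samples and 12, 12.1 and 8.80 FPKM in the shARID1A samples. In both groups the replicate 3 was the lowest, and the groups did not overlap (log2 fold change -0.94, SE 0.17, limma adjusted p = 0.00912). LINC01060 went from a mean of 2.06 to 0.437 FPKM, LINC01484 from 2.02 to 0.407 FPKM, and LINC01564 from 2.12 to 0.495 FPKM. These 3 fell with log2 fold changes of -1.09, -1.08 and -1.04 on at most 55 reads in any sample. LINC00847 fell from 5.73 to 2.85 FPKM (limma adjusted p = 0.0039, log2 fold change -0.81) and LINC00319 from 1.91 to 0.655 FPKM (-0.81, adjusted p = 0.00562). All of these passed in every alternative in which they were tested.

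The LINC genes that rose were LINC00941 and LINC00431. LINC00941 was 12.1, 12 and 13.8 FPKM in the shCONTROL samples and 16.7, 17.4 and 15.1 FPKM in the shARID1A samples. The groups did not overlap. Its call (log2 fold change 0.35, SE 0.10, limma adjusted p = 0.0484) was lost with the replicate block (adjusted p = 0.0502), without the mean-variance trend, under voom, and when any sample other than shARID1A replicate 3 was left out, up to an adjusted p of 0.203. LINC00431 rose from 2.73 ± 0.225 to 4.03 ± 0.319 FPKM (SD, n = 3 each; log2 fold change 0.43, limma adjusted p = 0.0347), a call also lost under voom and when any sample other than shARID1A replicate 3 was left out (up to 0.161). With no minimum level H19 was the only member that rose, since the other 4 calls were then lost.

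RefSeq now lists 8 of the members as protein-coding, since they were found to encode small proteins. Of these 8, 3 fell and none rose (10.9% and 5.85% of all genes did). They were picked out after their values were seen. LINC01420, listed as NBDY and encoding a micropeptide of the messenger RNA decapping complex, fell from 6.97 ± 1.37 to 3.86 ± 0.536 FPKM (SD, n = 3 each; log2 fold change -0.71, limma adjusted p = 0.0172). MMP24-AS1 fell from 3.27 to 1.65 FPKM (adjusted p = 0.0245) and LINC00094 from 5.07 to 3.62 FPKM (adjusted p = 0.0339). Each of these calls was lost without shCONTROL replicate 1 or 2, with adjusted p of at most 0.0665, 0.0943 and 0.150 over the alternatives. The MMP24-AS1 call was also lost without shCONTROL replicate 3. The LINC00094 call was lost without shCONTROL replicate 3, shARID1A replicate 1 or shARID1A replicate 2, and after cyclic loess with the replicate block. Both calls were also lost with no minimum level and after quantile normalization. LINC00493 (SMIM26) was 35.9 and 29.0 FPKM, LINC00998 (SMIM30) 34.7 and 31.4 FPKM, NCBP2-AS2 19 and 20.1 FPKM and LINC00116 (MTLN, a mitochondrial microprotein) 4.11 and 4.25 FPKM in the shCONTROL and shARID1A samples, and these did not pass the test. The last of the 8 is TUG1.

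Antisense-named genes gave 27 changed members, 25 lower and 2 higher of 127 (21.3% changed, against 16.8% of all genes). Over all genes 10.9% fell and 5.85% rose, with a median log2 fold change of -0.08, against -0.27 for the antisense-named genes. Such a gene is named for a gene or locus on the opposite strand, and the gene that its symbol names without the ending is here called its partner. In RefSeq 78 of them overlapped the partner, 39 lay within 1000 bases of it and 5 lay farther away. For RPARP-AS1, HOXC-AS2 and HOXA-AS2 no partner was found, and the position of 2 others relative to the partner was not determined. Of the 78 overlapping ones 17 fell and 2 rose (24.4% changed). Of the 39 within 1000 bases 5 fell and none rose (12.8% changed, below the 16.8% of all genes). The sources used here do not say whether reads were counted by strand, so reads of an antisense gene and of an overlapping partner cannot be told apart. Over all classes, 122 members overlap no protein-coding gene, of which 25 fell and 2 rose (22.1% changed), and 105 overlap at least 1, of which 21 fell and 3 rose (22.9% changed).

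APCDD1L-AS1 (gene ID 149773) had the largest decrease of any changed member on the log2(FPKM + 1) scale, which compresses the changes of lower genes such as LINC00536. It was 3.74, 5.83 and 9.43 FPKM in the shCONTROL samples and 1.07, 1.95 and 1.20 FPKM in the shARID1A samples. The control values varied widely, yet the lowest of them lay above the highest knockdown value (6.33 ± 2.88 and 1.41 ± 0.474 FPKM, SD, n = 3 each; log2 fold change -1.55, SE 0.27, limma adjusted p = 0.00816). Its partner APCDD1L was 2.08 and 2.74 FPKM on average and did not pass the test (adjusted p = 0.333). ZFPM2-AS1 was 19.6, 19.6 and 19.1 FPKM in the shCONTROL samples and 8.02, 6.35 and 10.3 FPKM in the shARID1A samples, a tight control group clear of the knockdown group (log2 fold change -1.17, SE 0.15, limma adjusted p = 0.00275). Its partner ZFPM2, a cofactor of GATA transcription factors, was too low to be tested (0.79 and 0.804 FPKM).

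Both antisense genes of DLGAP1, a gene of the neuronal postsynaptic density, fell. DLGAP1-AS2 was 11.6, 11.3 and 7.38 FPKM in the shCONTROL samples and 3.57, 3.33 and 4.19 FPKM in the shARID1A samples (log2 fold change -1.22, SE 0.17, limma adjusted p = 0.0033). DLGAP1-AS1 was 12.2, 12.7 and 14.9 FPKM in the shCONTROL samples and 6.74, 5.54 and 7.62 FPKM in the shARID1A samples (log2 fold change -0.91, SE 0.13, limma adjusted p = 0.00417). Neither gene's groups overlapped, and DLGAP1 itself was listed near 0 in both groups (0.133 and 0.0355 FPKM). NOP14-AS1 fell from 5.83 to 2.92 FPKM (limma adjusted p = 0.00522, log2 fold change -0.81), while NOP14, a factor of small ribosomal subunit assembly, was 28.6 and 29.7 FPKM (adjusted p = 0.752). FAM83H-AS1, among the antisense genes with the highest level and chosen after its values were seen, fell from 49.9 ± 2.08 to 36.3 ± 3.14 FPKM (SD, n = 3 each; log2 fold change -0.45, limma adjusted p = 0.0162). That call was lost without replicate 1 or 2 of shCONTROL or replicate 1 of shARID1A (adjusted p up to 0.0964). The 32 genes that fell and are not among the 15 with the largest decrease had adjusted p-values up to 0.0477, and the smallest log2 fold change among them was -0.37.

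In 97 pairs both the antisense gene and its partner were tested. The partner had the higher level in 89 of them. In 17 pairs only the antisense gene passed the test, 16 of these lower, in 12 pairs only the partner passed, in 4 pairs both passed, and in 64 pairs neither passed. The antisense gene thus passed in 21 of the 97 pairs and the partner in 16, and 16.8% of all genes tested passed. Whether 4 pairs with both passing are more than these separate counts would give was not tested. Whether the change differed between the genes of a pair was not tested. Among the pairs in which both passed, SEMA3B, GATA3 and HAS2 moved in the same direction as their antisense gene. The GATA3 pair was picked out after its values were seen.

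SEMA3B-AS1 was 2.99, 1.88 and 2.39 FPKM in the shCONTROL samples and 0.649, 0.454 and 0 FPKM in the shARID1A samples. Its values rest on 0 to 32 reads, and the count of 0 in shARID1A replicate 3 allows up to 0.256 FPKM at 3 reads (log2 fold change -1.34, SE 0.21, limma adjusted p = 0.00505). SEMA3B, a secreted semaphorin, was 24.1, 24.4 and 27.6 FPKM in the shCONTROL samples and 13.1, 13.6 and 6.08 FPKM in the shARID1A samples (log2 fold change -1.22, SE 0.25, limma adjusted p = 0.0156). Both genes were lowest in shARID1A replicate 3, and the groups of neither overlapped. The SEMA3B call was lost with no minimum level and without shCONTROL replicate 2 or 3 (adjusted p up to 0.0549).

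GATA3-AS1 was 3.16, 3.02 and 3.12 FPKM in the shCONTROL samples and 1.43, 1.24 and 1.7 FPKM in the shARID1A samples (log2 fold change -0.74, SE 0.12, limma adjusted p = 0.00547). GATA3, a transcription factor of epidermal differentiation, was 70.1, 71.7 and 59.9 FPKM in the shCONTROL samples and 47.3, 48.6 and 46.1 FPKM in the shARID1A samples (log2 fold change -0.49, SE 0.096, limma adjusted p = 0.0124). Neither gene's groups overlapped, and the GATA3 call was lost without replicate 1 or 2 of shCONTROL or replicate 1 of shARID1A (adjusted p up to 0.0795).

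HAS2-AS1 and HAS2, a hyaluronan synthase, both rose. HAS2-AS1 was 0.829, 0.861 and 1.31 FPKM in the shCONTROL samples and 1.93, 1.83 and 2.66 FPKM in the shARID1A samples (log2 fold change 0.65, SE 0.15, limma adjusted p = 0.0246). HAS2 was 3.46, 3.38 and 3.19 FPKM in the shCONTROL samples and 7.35, 6.28 and 6.14 FPKM in the shARID1A samples (log2 fold change 0.80, SE 0.11, limma adjusted p = 0.00327). The groups of each gene did not overlap, but the call for HAS2-AS1 was lost without replicate 1 or 2 of shCONTROL or replicate 1 of shARID1A (adjusted p up to 0.105). EMC3-AS1, the other antisense gene that rose, went from 3.09 ± 0.256 to 4.49 ± 0.455 FPKM (SD, n = 3 each; log2 fold change 0.43, limma adjusted p = 0.0402), a call lost when any sample other than shARID1A replicate 3 was left out (up to 0.128). EMC3, a subunit of the membrane protein insertion complex of the endoplasmic reticulum, was 69.1 and 56.6 FPKM (limma adjusted p = 0.056, log2 fold change -0.28).

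**Figure D4:**
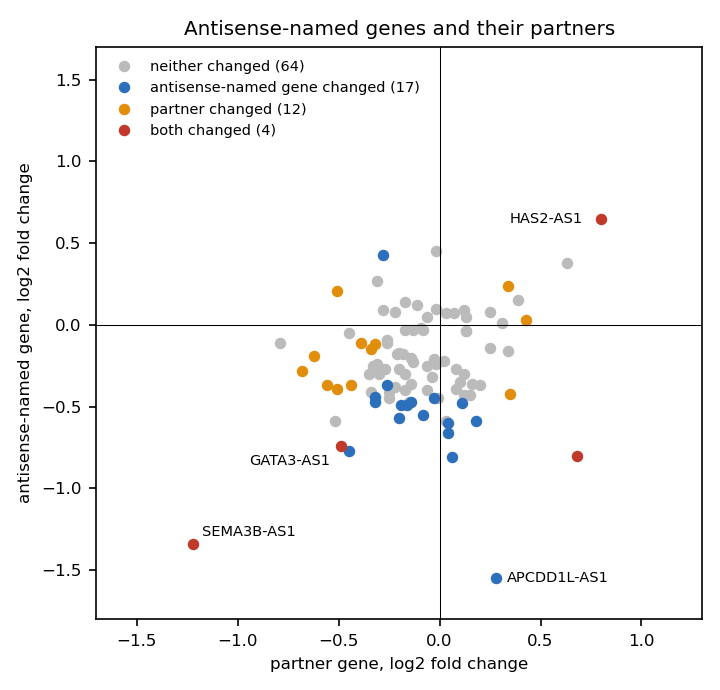
Log2 fold change (shARID1A minus shCONTROL) of 97 antisense-named genes against that of their coding partner, coloured by which of the pair passed an adjusted p of 0.05 in limma. In 17 pairs only the antisense gene passed, in 12 only the partner and in 4 both, and 16.8% of all genes tested passed.

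The snoRNA host genes, chosen here by symbol and without hosts of other names such as LRRC75A-AS1, gave no changed member. Their spliced RNA is largely a carrier: the snoRNAs in the introns guide the chemical modification of ribosomal RNA, and the spliced exons of several hosts are degraded by nonsense-mediated decay as soon as they are translated. Of the 20, 0 passed the adjusted threshold in limma, 2 had an unadjusted p below 0.05, and 0 passed by voom on the reads recovered from the values. Over all genes tested 16.8% passed. The median log2 fold change of the hosts was -0.08, the same as over all genes, and the groups did not overlap in 3 of 20 (15%, against 38.8% of all genes).

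SNHG5, the member with the highest level, was 262, 282 and 189.5 FPKM in the shCONTROL samples and 202, 167 and 150.1 FPKM in the shARID1A samples. The highest knockdown value lay above the lowest control value, so the groups overlapped (244 ± 48.5 and 173 ± 26.2 FPKM, SD, n = 3 each; log2 fold change -0.49, SE 0.16, limma adjusted p = 0.0782). With the replicate number as a block SNHG5 passed (adjusted p = 0.0167), as it did without shCONTROL replicate 3 (0.0282) and without the replicate 3 of both groups (0.00893). GAS5, a growth arrest-specific host whose RNA can bind the glucocorticoid receptor, was 126, 127 and 76.0 FPKM in the shCONTROL samples and 91.4, 94.7 and 85.0 FPKM in the shARID1A samples. Here shCONTROL replicate 3 was the lowest of all 6 samples (log2 fold change -0.24, limma adjusted p = 0.394), and without it GAS5 passed the test (adjusted p = 0.0222, and 0.0068 to 0.763 over the alternatives).

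SNHG1 was 70.0, 64.0 and 58.6 FPKM in the shCONTROL samples and 80.2, 78.3 and 72.0 FPKM in the shARID1A samples. Every knockdown value lay above every control value, but the difference did not pass the threshold (log2 fold change 0.26, SE 0.096, limma adjusted p = 0.101), which it did without shARID1A replicate 3 (0.0448). SNHG6 was 62.3 ± 8.43 and 54.1 ± 9.47 FPKM, SNHG15 47.5 ± 10.4 and 45.4 ± 8.96 FPKM, and SNHG12 22.1 ± 3.98 and 23.0 ± 5.99 FPKM in the shCONTROL and shARID1A samples (SD, n = 3 each). These differences were smaller than the spread between replicates. SNHG16 was 17.7 and 20.2 FPKM, SNHG7 21.6 and 23.5 FPKM, SNHG8 22.3 and 20.9 FPKM and SNHG3 11.6 and 13.1 FPKM. SNHG17 was 22.9, 22.8 and 13.4 FPKM against 21.0, 23.1 and 15.9 FPKM, with the replicate 3 of each group below all other samples. SNHG19 was 10.1 and 7.71 FPKM, SNHG11 9.23 and 7.49 FPKM, SNHG18 7.15 and 6.23 FPKM and SNHG4 6.68 and 7.22 FPKM. At the low end SNHG10 was 3.09 and 2.56 FPKM, SNHG20 2.12 and 2.17 FPKM, SNHG21 1.97 and 1.97 FPKM and SNHG22 1.40 and 1.21 FPKM, with adjusted p-values in limma from 0.289 to 0.989. SNHG9 had the largest difference of the class (1.72 and 0.920 FPKM, log2 fold change -0.59, adjusted p = 0.248) on 0 to 16 reads, and its count of 0 in shARID1A replicate 3 allows up to 0.372 FPKM at 3 reads.

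The libraries numbered 3 stood low across this class. Replicate 3 was the lowest of its group for 18 of 20 snoRNA host genes in the shCONTROL samples and for 14 of 20 in the shARID1A samples. It was the lowest in both groups for 14 of 20 (70.0%), compared with 22.6% of all genes tested, 18.9% of the antisense-named genes, 12.7% of the LINC genes and 12 of 26 (46.2%) protein-coding hosts of snoRNAs. Which feature of these libraries goes with that pattern was not tested. LRRC75A-AS1, which RefSeq lists as the snoRNA host SNHG29, had the same order, with 146, 143 and 106 FPKM in the shCONTROL samples and 106, 116 and 92.6 FPKM in the shARID1A samples. It did not pass the test (log2 fold change -0.32, limma adjusted p = 0.152), but did with the replicate block (0.0395). EPB41L4A-AS1, another host chosen after its values were seen, was 17.0, 19.9 and 9.89 FPKM in the shCONTROL samples and 15.8, 13.8 and 7.88 FPKM in the shARID1A samples, again lowest in replicate 3 of each group (limma adjusted p = 0.507). LINC00888, which RefSeq lists as SNHG33, went the other way and was also named after its values were seen. It was 3.8, 3.79 and 4.25 FPKM in the shCONTROL samples and 3.33, 3.6 and 5.06 FPKM in the shARID1A samples, highest in replicate 3 of each group.

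**Figure D5:**
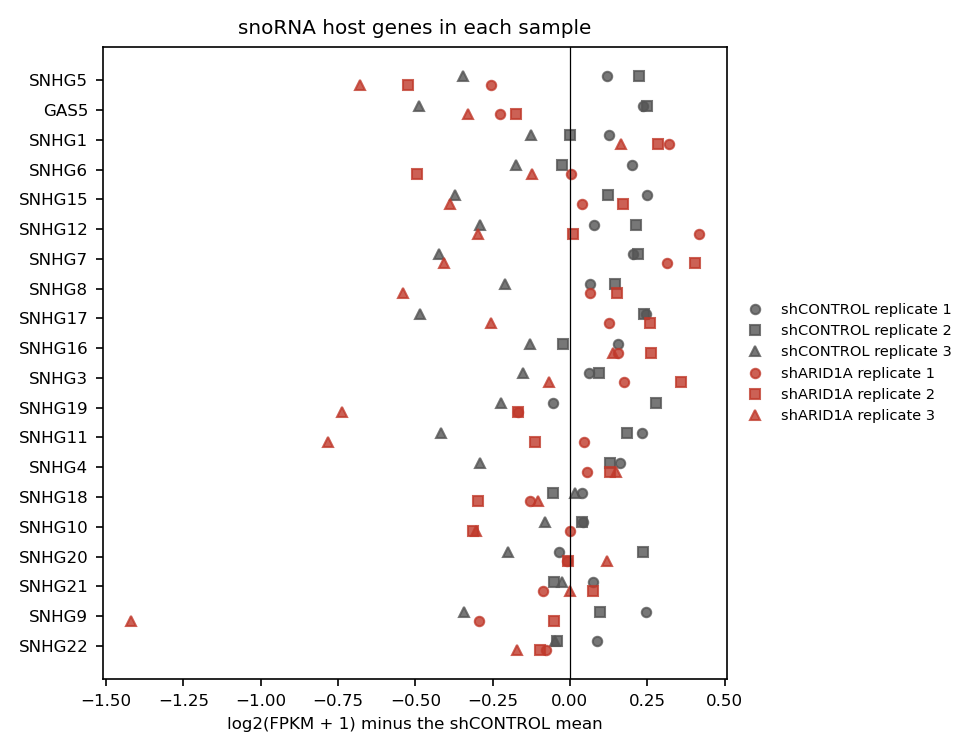
Log2(FPKM + 1) in each sample minus the shCONTROL mean for the 20 snoRNA host genes, ordered by mean level, with the replicate number as the marker shape. The triangles of replicate 3 lie lowest in both groups for 14 of the 20 genes.

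Hosts of snoRNAs are known for starting with a terminal oligopyrimidine tract, a C followed by further C or T bases, which they share with ribosomal protein genes. At the RefSeq start base, 5 of 17 snoRNA host genes with a promoter entry (29.4%) had a C followed by at least 4 pyrimidines, as had 5.23% of all members and 4.04% of all promoters in the table. The tract need not begin at the annotated base, and a window without it shows only that these letters are not at that base. The 5 windows are printed from 10 bases before to 30 bases from the start (GRCh38.p14, RefSeq), with the tract in capitals:
SNHG5 (chr6:85678704-85678743, minus strand): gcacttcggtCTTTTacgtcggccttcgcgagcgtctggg
SNHG12 (chr1:28581844-28581883, minus strand): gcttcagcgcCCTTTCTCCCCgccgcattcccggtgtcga
SNHG4 (chr5:139274091-139274130, plus strand): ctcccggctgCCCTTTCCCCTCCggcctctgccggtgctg
SNHG18 (chr5:9546190-9546229, plus strand): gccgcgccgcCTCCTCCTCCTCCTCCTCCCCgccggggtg
SNHG19 (chr16:2155329-2155368, minus strand): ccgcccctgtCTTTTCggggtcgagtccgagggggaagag

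Genes of proteins that work with snoRNAs were examined beside the hosts. Of 14 tested proteins that bind or assemble snoRNAs, 1 rose and none fell (5.85% and 10.9% of all genes did), with a median log2 fold change of 0.07. The gene that rose was FBL, the methyltransferase of box C/D particles, from 173 to 255 FPKM (limma adjusted p = 0.028, log2 fold change 0.54). That call was lost with no minimum level and without any 1 of the shCONTROL samples or shARID1A replicate 1 (up to 0.104). NOP56 was 110.1 and 137 FPKM (adjusted p = 0.085, and 0.0346 with the replicate block) and NOP58 70.8 and 83.8 FPKM (adjusted p = 0.131); both are core proteins of the same particles. Of 26 tested protein-coding snoRNA host genes, HSPA8 rose and TPT1 fell (7.69% changed, against 16.8% of all genes), with a median of 0.10. HSPA8, the constitutive HSC70 chaperone, was 739, 753 and 863 FPKM in the shCONTROL samples and 1247, 1295 and 1289 FPKM in the shARID1A samples (log2 fold change 0.70, limma adjusted p = 0.00251). TPT1, a translationally controlled tumour protein, went from 328 to 241 FPKM (limma adjusted p = 0.0388, log2 fold change -0.44). The TPT1 call was lost with no minimum level, without the mean-variance trend and without replicate 1 or 2 of either group (up to 0.159).

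Of 14 nonsense-mediated decay genes, 0 passed in limma, against 16.8% of all genes. Of the 14, 3 had an unadjusted p below 0.05 in limma and 1 passed by voom, with a median log2 fold change of -0.14. XRN1, the 5′ to 3′ exonuclease that degrades decapped RNA, had the smallest p (5.18 and 3.45 FPKM, limma adjusted p = 0.0651, log2 fold change -0.49), and passed with the replicate block (0.0345). SMG1, the kinase of UPF1, was 22.3 and 18.1 FPKM (adjusted p = 0.0808).

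Long noncoding genes whose names the rule does not match were taken from a list. Of 22 tested, 4 fell and 2 rose (27.3% changed, against 16.8% of all genes), with a median log2 fold change of -0.43. Of these calls 33.3% were higher, near the 34.9% over all genes tested. LUCAT1, a stress-responsive noncoding RNA, was 4.45, 5.31 and 6.49 FPKM in the shCONTROL samples and 0.408, 0.822 and 1.17 FPKM in the shARID1A samples. Its groups stood far apart (log2 fold change -1.84, limma adjusted p = 0.00108). PCAT7 fell from 2.75 to 0.852 FPKM (limma adjusted p = 0.00251, log2 fold change -1.02), and the microRNA host genes MIR22HG and MIR31HG fell from 9.84 to 6.22 FPKM (adjusted p = 0.0127) and from 11.3 to 8.09 FPKM (adjusted p = 0.0402). The MIR22HG call was lost without shCONTROL replicate 1 or 2, and the MIR31HG call with no minimum level, after upper-quartile, quantile or cyclic loess scaling, and without any 1 of the shCONTROL samples or shARID1A replicate 1. MIR4435-2HG rose from 8.70 to 15.5 FPKM (limma adjusted p = 0.0152, log2 fold change 0.77), a call lost without shCONTROL replicate 1 or shARID1A replicate 1. DANCR, which keeps epidermal progenitors undifferentiated, was 37.2, 38.1 and 45.3 FPKM in the shCONTROL samples and 53.7, 53.6 and 55.0 FPKM in the shARID1A samples. Its groups did not overlap (log2 fold change 0.43, limma adjusted p = 0.0231), and the call was lost without replicate 1 or 2 of shCONTROL or replicate 1 of shARID1A (up to 0.121). TINCR, known for promoting epidermal differentiation, was 3.47, 4.46 and 5.12 FPKM against 2.94, 3.03 and 2.58 FPKM, groups that did not overlap with a difference that did not pass (log2 fold change -0.47, limma adjusted p = 0.0549). MIR31HG, MIR4435-2HG, DANCR and TINCR were named after their values were seen.

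Small structured RNAs without a poly(A) tail were at low level in the table. How far such RNA was kept in the libraries is not known, since the labels do not name the RNA selection. RMRP, the RNA of RNase MRP, was 1.18, 4.75 and 0.431 FPKM in the shCONTROL samples and 3.89, 0.573 and 1.29 FPKM in the shARID1A samples, with no order between the groups. RPPH1, the RNA of RNase P, which cuts the end of MALAT1, was 3.23 and 2.19 FPKM (limma adjusted p = 0.550). Of the genes on that list 2 were tested, 0 passed in limma, 0 had an unadjusted p below 0.05 and 0 passed by voom.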

How the data were processed

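Per the submitters' processing notes, reads were aligned with HISAT2 2.0.5 and assigned with featureCounts 1.5.0-p1; build, annotation and strand: not given in the sources used here. The deposited table, per the file headers, holds FPKM values that the authors computed, 1 column per sample. Of its 26048 rows 6234 were empty and 19814 named a gene. In 19421 rows the FPKM steps equalled whole reads (100% of values, tolerance 0.01 reads), so assigned reads per sample could be recovered (31658040 to 36453744); the 393 gene rows on another scale were not used. Intervals from such counts cover counting error only.

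FPKM was tested as log2(FPKM + 1) in the 11599 genes whose 6 samples averaged 1 FPKM or more, with limma 3.58.1 in R 4.3.3 (lmFit, eBayes with trend, two-sided, Benjamini-Hochberg over all genes tested, no covariate). Fold changes are on that scale and understate those of low genes. The voom alternative ran on the recovered reads and called 2136 genes, against 1944. Tables were made in Python 3.11.15 with numpy 2.4.6 and pandas 2.3.3, and figures with matplotlib 3.10.9. The fit was tested on simulated data.

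Same-numbered samples deviated together (correlations 0.321, 0.187 and 0.315), so the numbers were taken as pairs from the data, and the replicate block was an alternative. The main fit did not use these pairs, so its counts and p-values are unpaired. With the block 5 members rose and 65 fell, and 2740 genes changed, against 1944 in the main fit. Between replicates chi-square per degree of freedom was 5.38 to 84.7, so no library was a copy. Alternatives were other pseudocounts (0.1, 5), minimums (none, 5 FPKM), scalings, no trend, voom, the block and leaving out each sample; leaving out replicate 3 of both groups and counting subsets of members were added after seeing the data. Genes named were ARID1A, the named genes and SNHG members, the 5 highest members, the 15 largest increases (5 existed) and decreases past the threshold, their partners, the genes nearest the minimum, and the 3 with the smallest p of each other list; others are said to be named after their values were seen. Members and lists were chosen with earlier results of these data known. 1 antisense pair is not reported here. RefSeq matched 227 of 230 members by gene ID. Sequences are from RefSeq.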

Additional observations from a re-analysis of the deposited data

How the results depend on the processing

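Of 52 changed members (5 higher, 47 lower), 33 were changed with no minimum level (1 higher), 14 at a minimum of 5 FPKM (1 higher, 13 lower) and 27 among members that overlap no protein-coding gene (2 higher, 25 lower). After quantile scaling 11 rose and 26 fell, and after cyclic loess with the replicate block 12 rose. Leaving out 1 sample gave 20 to 71 changed members, 1 to 8 higher and 19 to 63 lower; leaving out replicate 3 of both groups gave 90, 8 and 82. The numbers pair the samples by the check on the data: the replicate block gave 70 changed members, 51 of the 52 among them. The median log2 fold change of -0.25 was -0.34 with a pseudocount of 0.1, -0.36 under voom, and -0.12 with a pseudocount of 5, after quantile scaling and after cyclic loess with the block. The snoRNA host count of 0 was 1 with the replicate block and with loess and the block, 0 to 2 without 1 sample and 2 without replicate 3. The antisense count of 27 was 8 at 5 FPKM, 7 without overlap of a coding gene, 8 to 40 without 1 sample and 48 without replicate 3. The LINC count of 22 was 12 with no minimum, 5 at 5 FPKM, 9 to 27 without 1 sample and 37 without replicate 3.

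The genes that turned sign had not passed the test. SNHG21 had log2 fold changes of 0.020 (upper quartile), 0.166 (quantile) and 0.155 (loess with block), SNHG22 of 0.041 (quantile) and 0.049 (loess with block), and RMRP of 0.061 (pseudocount 0.1), 0.012 (upper quartile), 0.171 (quantile), 0.153 (loess with block) and 0.095 (voom). With samples left out the log2 fold change ranged from -0.103 to 0.133 for HOXA-AS2, -0.060 to 0.245 for LINC00116, -0.298 to 0.015 for LINC00998, -0.083 to 0.251 for NCBP2-AS2, -0.049 to 0.121 for NOP14, -0.463 to 0.560 for RMRP, -0.143 to 0.213 for SNHG12, -0.246 to 0.105 for SNHG15, -0.199 to 0.192 for SNHG17, -0.109 to 0.151 for SNHG20, -0.042 to 0.038 for SNHG21, -0.053 to 0.192 for SNHG4, -0.109 to 0.359 for SNHG7 and -0.238 to 0.108 for SNHG8. Fewer genes tested or fewer samples account by construction for the counts at 5 FPKM and in subsets; for the other changes the cause was not tested. Depth limits 20 members with under 20 reads in a sample.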
